A study of Mus musculus with 14 samples.

Results

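MicroRNA genes were followed through the peak lists of a MyoD and MyoG ChIP-seq experiment on mouse muscle stem cells (MuSCs). A member was every gene in the 12 lists whose symbol was Mir or Mirlet followed by a digit. Host genes whose symbols end in hg were left out, as were Mir206 and Mir133b. Of the 4384 genes with at least 1 peak, 38 were microRNA genes, and they held 72 of the 10303 peaks.

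The mice were labelled wild-type and carried a Pax7-Cre(ERT2) driver, active in the Pax7-expressing stem cells of muscle, together with a mito-Dendra2 allele, so that MuSCs and their progeny gained a fluorescent mitochondrial protein after tamoxifen (75 mg/kg on 5 days). BaCl2 (50 µL of a 1.2% solution) was injected into the tibialis anterior (TA) muscle to injure it, and saline into the opposite TA muscle. At 2 days post injury (dpi), activated MuSCs (ASCs, Dendra2+ CD34- cells) were sorted from injured muscle and quiescent MuSCs (QSCs, Dendra2+ CD34+ cells) from the saline-injected muscle. MyoD and MyoG antibodies were each used on 3 ASC and 3 QSC libraries, and the 2 input libraries were not analysed here.

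The age and sex of the mice, and how many were pooled for a library, are not given in the sources used here. State, injury and the CD34 gate changed together and cannot be told apart. Peak lists hold no expression values, so the sorted cells could not be checked against MuSC markers. A list holds the places where a whole sample passed the peak threshold, so binding in more cells and stronger binding per cell cannot be told apart. Replicates are called so in the sample titles, and the paper that reported these data describes its ChIP-seq replicates as biological. Whether the replicates came from separate animals is not stated in the sources used here.

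MicroRNAs are short RNAs that pair with messenger RNAs and lower their translation and stability. Each is cut from a hairpin in a longer transcript, and bases 2 to 8 of the mature strand, the seed, contribute most to choosing the targets. Several have known roles in muscle. miR-1 and miR-133a are made from shared transcripts in striated muscle and act in myoblast differentiation and proliferation. MyoD and MyoG are basic helix-loop-helix transcription factors that bind E-boxes (CANNTG) and drive the myogenic programme, with MyoD acting earlier and MyoG during terminal differentiation.

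The lists assign every peak to 1 gene, at any distance, and to a part of a gene such as its promoter. Peaks were scored by their p-value from the peak caller, as -10 times its log10. The minimum in the lists was 50, a peak caller p-value of 1e-05 over background. Coordinates are those of the mouse build mm10. RefSeq positions and sequences are from GRCm38.p6, the same build, and all 38 symbols were found there.

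A first set of sequences belongs to the members found on lists of microRNAs with a known role in muscle, in stem cells or in the let-7 and miR-100 clusters. They are shown as RNA, 5′ to 3′, as RefSeq gives them, with the seed in capitals, because microRNAs are grouped into families by the seed. For Mir1a-1 it is the 5p arm, the one used here, and the seed of the miR-1 family is on the other arm, miR-1a-3p.
let-7a-5p, from Mirlet7a-1: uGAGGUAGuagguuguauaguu
miR-100-5p, from Mir100: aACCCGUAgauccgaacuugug
miR-1a-1-5p, from Mir1a-1: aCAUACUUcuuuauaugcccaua
miR-26a-5p, from Mir26a-1: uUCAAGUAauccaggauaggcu
miR-365-3p, from Mir365-2: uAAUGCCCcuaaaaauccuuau
miR-378d, from Mir378d: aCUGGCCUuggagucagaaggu

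A second set belongs to further members whose region was called in at least 2 of the 3 ASC MyoD libraries, ordered by score from the highest, again with the seed in capitals. Mir6356 and Mir7212 met the same rule and have no mature sequence printed here.
miR-5133, from Mir5133: gCUGGAGCugcggcagcgcag
miR-1969, from Mir1969: aAGAUGGAgacuuuaacaugggu
miR-298-5p, from Mir298: gGCAGAGGagggcuguucuuccc
miR-5618-5p, from Mir5618: uACCCUUUacaccguguagu
miR-6351, from Mir6351: uAGCGUUGcucagggagcacaug
miR-6343, from Mir6343: uGUAAAGUaggagcugacugac
miR-802-5p, from Mir802: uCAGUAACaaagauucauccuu
miR-138-5p, from Mir138-2: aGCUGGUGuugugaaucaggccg
miR-21c, from Mir21c: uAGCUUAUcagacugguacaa
miR-680, from Mir680-3: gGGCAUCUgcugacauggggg
miR-5103, from Mir5103: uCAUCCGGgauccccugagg

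The members were not of a single seed family. Mature sequences from RefSeq were used for 33 members, and their 43 mature strands carried 43 different seeds. How often other sets of that size hold different seeds was not tested. For 11 of the strands the seed was shared with another mouse microRNA name in the table of 1738 mature sequences. The seed of let-7a-5p was that of 11 names, mostly let-7 members, the seed of miR-100-5p was also that of miR-99a-5p and miR-99b-5p, and miR-26a-5p shared its seed with miR-26b-5p. miR-21c carried the seed of miR-21a-5p, a microRNA raised in many injured tissues.

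MicroRNA peaks were most numerous in ASC MyoD libraries. Replicates 1, 2 and 3 held 22, 19 and 13 of them, against 1, 1 and 2 in the QSC MyoD libraries, and the groups did not overlap. ASC MyoG replicates 1, 2 and 3 held 4, 4 and 0, and QSC MyoG replicates held 1, 1 and 4. Both MyoG groups covered similar ranges, and QSC MyoG replicate 3 held as many as any ASC MyoG library. By gene, 27 members had a peak in ASC MyoD, and 22 of these had none in the other groups. The same share over all genes is not given here, so these counts are no result about microRNA genes. QSC MyoD lists named 4 members, ASC MyoG lists 8 and QSC MyoG lists 6.

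For MyoD the log2 ratio of ASC over QSC, formed on the number of microRNA peaks plus 1, was 3.02 (exact two-sided permutation p = 0.1, adjusted p = 0.583 over the 14 tests made). For MyoD over MyoG in ASCs it was 2.67 (exact permutation p = 0.1, adjusted p = 0.583), on the same ASC MyoD libraries. With 3 libraries against 3, 0.1 is the smallest p possible, so no such comparison could pass 0.05. The same ratio for MyoG was 0.11 (exact permutation p = 1) and changed sign without single libraries, over a range of -0.28 to 0.88. In QSCs the value for MyoD over MyoG was -0.25 (exact permutation p = 1), and without QSC MyoG replicate 3 it was 0.19.

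The ASC MyoD libraries were also the lists with the most peaks of any kind, 2262 to 2652 against 139 to 174 in QSC MyoD. As a share of all peaks, microRNA genes took 0.830%, 0.840% and 0.566% in ASC MyoD and 0.585%, 0.719% and 1.15% in QSC MyoD. The means were 0.745% ± 0.155 and 0.818% ± 0.295 (SD, n = 3), and the groups overlapped. The difference of -0.07 percentage points was smaller than the spread between replicates (exact permutation p = 0.8, adjusted p = 0.933), and it turned positive without ASC MyoD replicate 3 (0.0169) or QSC MyoD replicate 3 (0.0931). In MyoG lists, of 605 to 916 peaks in ASCs and 120 to 167 in QSCs, the shares were 0.437%, 0.661% and 0% in ASCs and 0.833%, 0.617% and 2.40% in QSCs. ASC minus QSC was -0.92 percentage points for MyoG (exact permutation p = 0.2, adjusted p = 0.583), and without QSC MyoG replicate 3 it was -0.36. MyoD minus MyoG was 0.38 percentage points in ASCs (exact permutation p = 0.2, adjusted p = 0.583) and -0.46 in QSCs (exact permutation p = 0.6, adjusted p = 0.764), where it became 0.0926 without QSC MyoG replicate 3. Read depth is unknown for every library, and its part in these numbers was not tested.

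**Figure D1:**
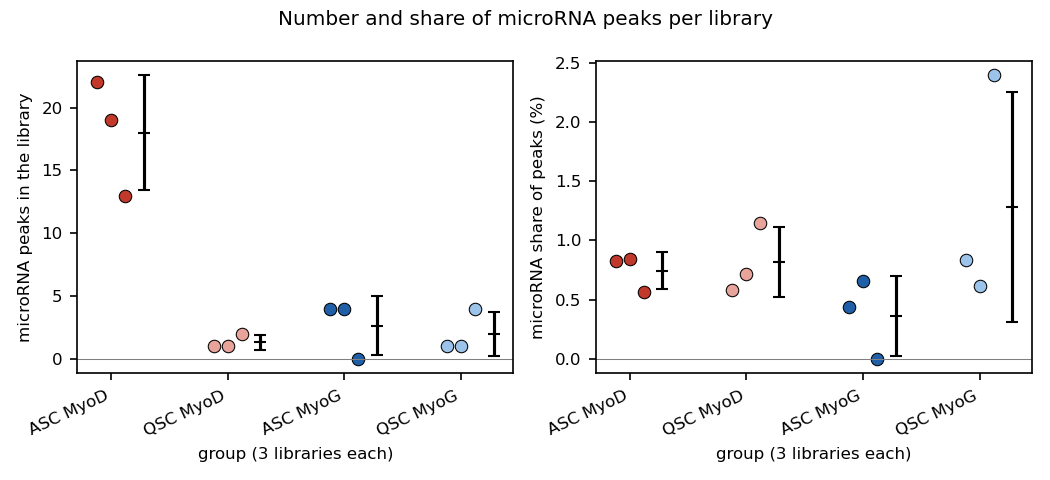
Number of microRNA peaks per library (left) and their share of all peaks of the library in percent (right), for 4 groups of 3 libraries. Points are libraries and bars are the mean ± SD. ASC MyoD libraries held 13 to 22 microRNA peaks and every other library at most 4, while the shares of the groups overlapped between ASC MyoD and QSC MyoD.

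Peaks were merged into a region when they overlapped by at least 1 bp, which gave 47 microRNA regions over the 12 lists. A region was called ASC-specific when at least 2 of the 3 ASC libraries and no QSC library of the antibody had a peak. For MyoD, 15 of 35 microRNA regions (42.9%) were ASC-specific, beside 44.0% of all 4488 MyoD regions. Regions with a peak in all 3 ASC MyoD libraries numbered 9 (25.7%), beside 24.7% of all MyoD regions. By gene, 15 of 29 members (51.7%) were ASC-specific, beside 51.9% of all genes with a MyoD peak. These shares were near the background in each case, so the count is no result about microRNA genes as a class. Without ASC MyoD replicate 2 the region count was 9, and without replicate 1 or replicate 2 the gene count was 9. No microRNA region was QSC-specific for MyoD, beside 0.780% of all regions.

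For MyoG, 0 of 14 microRNA regions were ASC-specific, beside 9.42% of all 2198 MyoG regions. Likewise 0 of 13 members were ASC-specific by gene, beside 11.7% of all genes with a MyoG peak, and no microRNA region was QSC-specific, beside 0.136% of all regions. Each MyoG region, and each QSC MyoD region, was called in 1 library. Peaks of 21 members came from a single library in all. Only 2 of the 47 regions held peaks of more than 1 group, one given to Mir5133 and one to Mir6393. Neither the single-library count nor this one is set beside all genes or regions, so they describe these members alone.

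**Figure D2:**
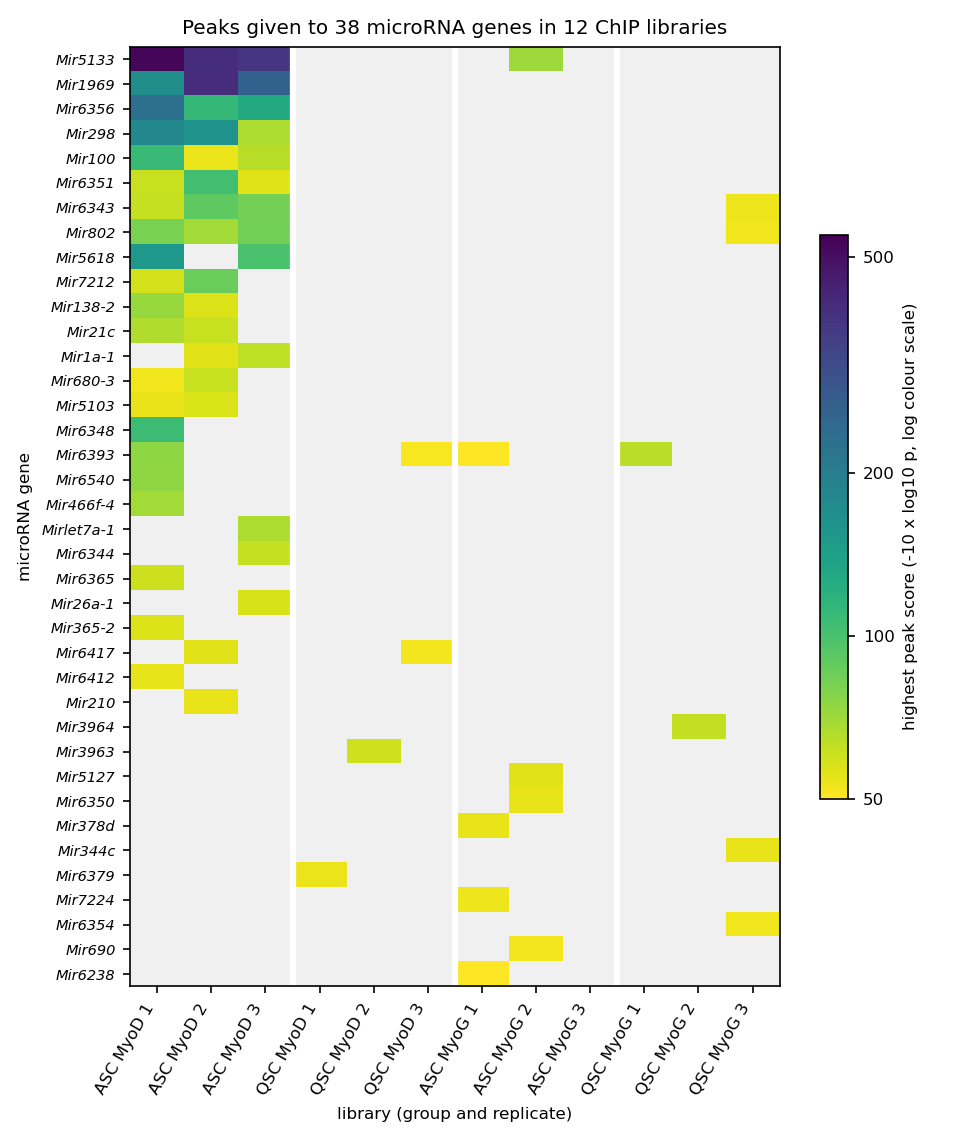
Highest peak score of each of the 38 microRNA genes (rows) in each of the 12 libraries (columns), on a log colour scale. Grey cells have no peak given to that gene. The upper rows show 15 genes with peaks in 2 or 3 ASC MyoD libraries, and scores of 80 or more stand in ASC MyoD columns alone. Those libraries also had the highest median scores of other peaks, 68.9 to 75.2.

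Of 10 myomiR genes in RefSeq that were looked for, a list from which the rule left out Mir206 and Mir133b, Mir1a-1 alone had a peak. That is 10% of the list, beside 3.23% of all RefSeq microRNA genes matching the rule. The share rests on 1 gene, and the list was chosen with earlier results of these data known. Mir1a-2, Mir1b, Mir133a-1, Mir133a-2, Mir133c, Mir208a, Mir208b, Mir499 and Mir486 were assigned none. The Mir1a-1 region, chr2:180393187-180393969, had a score of 55.7 in ASC MyoD replicate 2 and 62.8 in replicate 3. It had no peak in ASC MyoD replicate 1, in QSCs or with MyoG. Both scores lay below the median of the other peaks of their libraries, 72.3 and 68.9, and at a score of 80 or more neither would be kept.

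The position of this region bears on both muscle microRNAs of the locus. It lay 4.06 kb downstream of the Mir1a-1 hairpin and 4.41 kb from that of Mir133a-2, between both hairpins and inside the RefSeq span of their host transcript Mir1a-1hg. It was annotated distal intergenic and assigned to Mir1a-1, which is also the nearest microRNA in RefSeq. The closest protein-coding gene was Gata5, at 57.7 kb. The lists name 1 gene per peak, so the near-equal distance to Mir133a-2 does not show in them.

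Members of the let-7, miR-99/100 and miR-125 group had peaks at 2 of 18 genes. let-7 microRNAs rise as cells differentiate, and miR-100 is made from the same long transcript as a let-7 and a miR-125 hairpin. The Mir100 region, chr9:41446999-41448283, was called in all 3 ASC MyoD libraries at scores of 110, 53.5 and 65.0 (mean 76.0 ± 29.6, SD, n = 3). Replicate 1 stood above the other two. The region was 83.1 kb upstream of the Mir100 hairpin, inside the span of the host transcript Mir100hg, which also holds Mirlet7a-2 (88.4 kb away) and Mir125b-1 (134 kb away). The Mirlet7a-1 region, chr13:48545288-48546094, had a peak in ASC MyoD replicate 3 alone, at 67.5. It lay 7.02 kb upstream of Mirlet7a-1, with Mirlet7f-1 and Mirlet7d at 7.37 and 9.17 kb. Mirlet7a-1 and Mirlet7a-2 encode the same let-7a-5p printed above.

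Of 49 microRNA genes with roles in myoblast growth and differentiation, 3 had a peak, each in a single library. Mir26a-1, whose product lowers the histone methyltransferase Ezh2 in differentiating myoblasts, lay inside a MyoD peak of ASC replicate 3 (score 57.6, chr9:119031520-119032408). The hairpin is in the protein-coding gene Ctdspl, and the peak was annotated as promoter within 1 kb. Mir365-2 had a peak 3.58 kb downstream in ASC MyoD replicate 1 (score 56.7). Mir378d, of the miR-378 family linked to myoblast differentiation and energy metabolism, had an ASC MyoG peak in replicate 1 (score 54.1), at 275 kb. None of the 18 genes on a list for stem cell state had a peak. Over all lists 6 of 93 RefSeq genes had a peak (6.45%), beside 38 of 1178 RefSeq microRNA genes matching the rule (3.23%) and 14.4% of protein-coding genes. The lists were chosen with earlier results of these data known, so the higher share is no result about them.

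**Figure D3:**
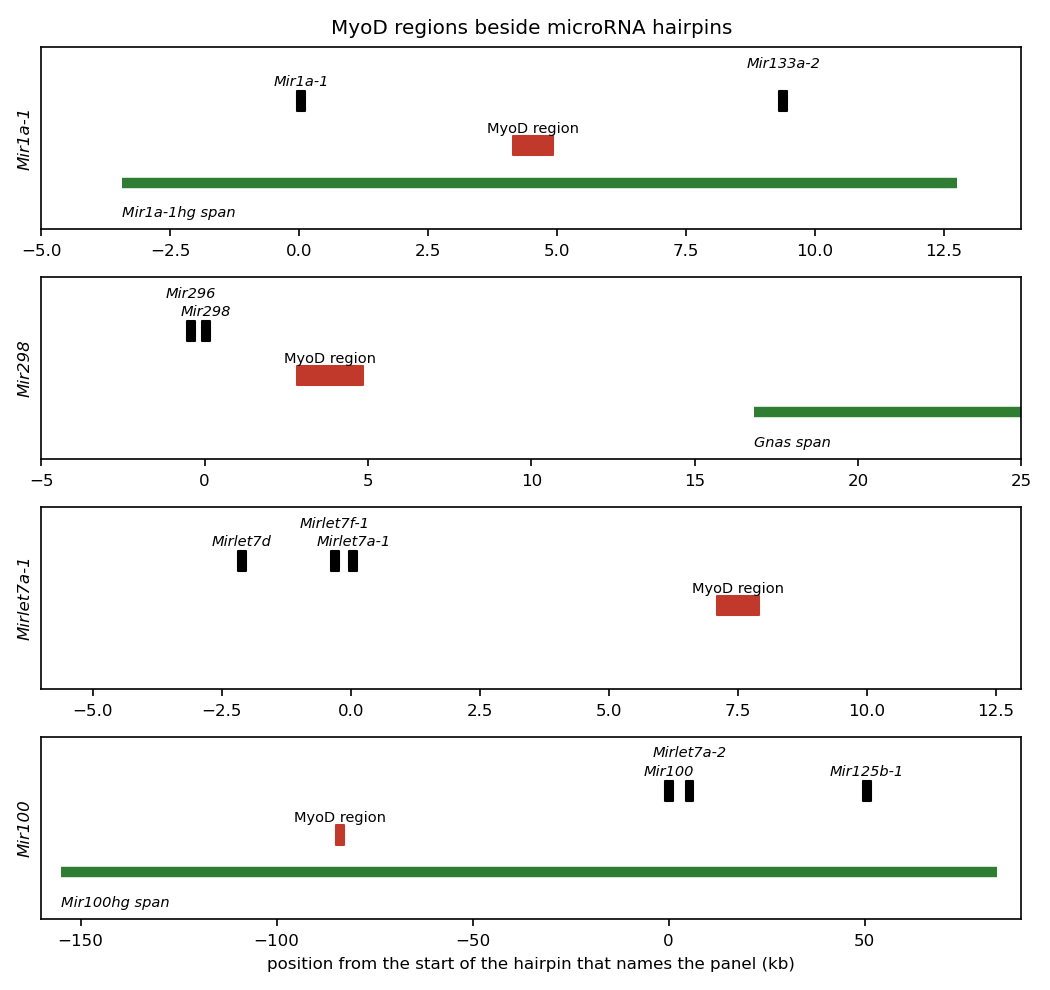
Maps of 4 ASC MyoD regions (red) with the hairpins (black) and the host or nearest gene span (green) in kb from the start of the hairpin that names each panel, in the direction of the chromosome. Hairpins, and the Mir100 region, are drawn wider than scale to be seen. The Mir1a-1 region sits between Mir1a-1 and Mir133a-2, and the Mir100 region lies 83.1 kb from its hairpin but inside the host transcript.

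The highest microRNA scores belonged to genes outside the muscle lists. The region given to Mir5133, chr9:62165798-62166992, scored 531, 402 and 384 in ASC MyoD replicates 1, 2 and 3 (mean 439 ± 80.3, SD, n = 3). In its best library it was within the top 0.264% of peaks. A peak of 71.2 was also called there in ASC MyoG replicate 2, and none in QSCs. The hairpin is 43.2 kb away, inside Glce, an enzyme of heparan sulphate synthesis, and the region lay 43.2 kb from Glce as well. What the region did cover was the start of Gm35227, a long noncoding RNA gene on the plus strand.

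The RefSeq promoter window of Gm35227, 250 bases before to 50 after its start (chr9:62166253-62166552, plus strand), is shown because it lies wholly inside this strongest region. Capitals mark E-boxes (CANNTG, which reads the same pattern on both strands).
Gm35227 promoter: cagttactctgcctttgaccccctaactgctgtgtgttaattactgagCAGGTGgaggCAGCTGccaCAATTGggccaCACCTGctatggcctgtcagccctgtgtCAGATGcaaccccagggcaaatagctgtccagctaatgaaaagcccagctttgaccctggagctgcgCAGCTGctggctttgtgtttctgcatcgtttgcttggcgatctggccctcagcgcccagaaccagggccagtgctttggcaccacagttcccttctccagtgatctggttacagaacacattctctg

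The window held 6 E-boxes, of which 2 were CAGCTG and 2 were CACCTG or its reverse complement CAGGTG. They began at -202, -192, -183, -172, -144 and -77 from the start site. The median over 32851 promoter windows of that length was 1, and 72.3% held at least 1. Windows with 6 or more CANNTG made up 0.670% of them, and windows with 2 or more CAGCTG made up 1.90%. A match is a description of these letters and was not tested for binding.

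The Mir1969 region, chr8:70927690-70928833, scored 168, 408 and 260.4 in the ASC MyoD replicates (mean 279 ± 121) and was the other one to reach the top 0.265% of a library. It was annotated as promoter, 2 to 3 kb from a start site, and lay 2.07 kb downstream of the hairpin. The nearest protein-coding gene was Gm10654, at 2.48 kb. Scores differed more between replicates here than at Mir5133. No QSC or MyoG library had a peak at Mir1969.

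Mir298 lies beside Mir296 in the imprinted Gnas domain, where expression depends on the parent of origin. Its region, chr2:174270346-174272340, scored 179, 162 and 67.1 (mean 136 ± 60.4) in ASC MyoD. It lay 2.76 kb upstream of Mir298, 3.22 kb from Mir296 and 12.0 kb from the Gnas span. The annotation was promoter in replicate 2 and distal intergenic in the other two, so the gene part of this region differed between libraries.

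Promoter annotation was found at 8 members, and all 13 such peaks were ASC MyoD peaks, 5, 5 and 3 in replicates 1, 2 and 3. In 4 of the 47 regions the peak covered part or all of the hairpin itself. Their hairpins are shown as RNA, with mature strands in capitals where RefSeq lists one.
Mir5618 hairpin, chr9:7784390-7784440, plus strand: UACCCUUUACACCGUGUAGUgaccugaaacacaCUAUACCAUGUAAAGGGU
Mir26a-1 hairpin, chr9:119031796-119031885, plus strand: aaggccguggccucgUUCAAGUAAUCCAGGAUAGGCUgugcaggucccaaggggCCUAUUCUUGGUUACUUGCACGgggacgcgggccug
Mir6540 hairpin, chr16:42303362-42303469, minus strand: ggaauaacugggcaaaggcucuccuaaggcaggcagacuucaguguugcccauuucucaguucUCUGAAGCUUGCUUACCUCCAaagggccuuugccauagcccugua
Mir7212 hairpin, chr15:25948227-25948287, plus strand: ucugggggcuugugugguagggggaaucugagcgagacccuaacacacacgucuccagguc

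All 4 hairpins lie in protein-coding genes, and none of the 4 sequences held an E-box (CANNUG in RNA letters). The Mir5618 region, in Tmem123, was called in all 3 ASC MyoD libraries at 153, 157 and 99.2 (mean 136 ± 32.4). The peak of replicate 2 was listed under Tmem123, so 2 libraries count it for Mir5618. Mir7212, in the endoplasmic reticulum receptor gene Retreg1, had scores of 58.1 and 86.1 in replicates 1 and 2. Mir6540, in Gap43, a gene of growing axons, scored 74.3 in replicate 1 alone. At these genes a peak within 1 kb of the microRNA was inside the host gene too.

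Further promoter peaks lay close to 2 members. Mir138-2, in the nucleoporin gene Nup93, had ASC MyoD peaks of 72.2 and 56.7 in replicates 1 and 2, at 1.65 kb upstream. Mir210, the microRNA induced by HIF1α in low oxygen, had 1 peak, of 53.9, in ASC MyoD replicate 2. It began 94 bp upstream of the hairpin, the shortest gap of any region that did not overlap one. By score the peak was within the top 86.8% of its library, so near the bottom of the list.

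Distal regions in all 3 ASC MyoD libraries were found at 4 more members. Mir6351 scored 61.4, 104 and 56.4, at 30.4 kb. Mir6343 scored 61.9, 90.3 and 82.9, at 215 kb, and had 2 further regions, in ASC MyoD replicate 2 (76.7) and in QSC MyoG replicate 3 (53.1). Mir802, a microRNA studied in liver and kidney, scored 81.1, 69.6 and 83.2, at 76.2 kb upstream. It also had a peak in ASC MyoD replicate 1 (68.5) and in QSC MyoG replicate 3 (52.4), at other places. For Mir6343 and Mir802 the ASC MyoD and QSC MyoG peaks did not overlap, so the shared gene name does not mean a shared region.

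Members with distal regions in ASC MyoD replicates 1 and 2 were Mir21c, Mir5103 and Mir680-3. Mir21c, with the seed of miR-21a-5p, scored 66.8 and 61.2, at 4.47 kb downstream of the hairpin and inside the noncoding gene A930035F09Rik, as the hairpin is. Mir5103 scored 54.3 and 57.3, at 44.6 kb. Mir680-3 scored 52.9 and 61.0, at 118 kb. These scores were near the floor of 50, and none of these regions would be kept at a score of 80.

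In QSCs every microRNA peak was a distal call in 1 library, with a score of at most 63.9. QSC MyoD gave Mir6379 a score of 53.8 in replicate 1, Mir3963 a score of 59.7 in replicate 2, and Mir6393 and Mir6417 scores of 51.3 and 52.2 in replicate 3. QSC MyoG gave Mir6393 a score of 63.9 in replicate 1 and Mir3964 a score of 62.4 in replicate 2. Within their own lists these 2 ranked high, in the top 15.8% and the top 16.0% of peaks. In replicate 3 it gave Mir344c and Mir6354 scores of 54.1 and 52.4, beside the peaks of Mir6343 and Mir802. QSC peaks reached 448 kb from the hairpin, at Mir3963, while those of Mir6379 and Mir344c lay at 4.72 and 5.31 kb.

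ASC MyoG peaks were likewise single calls. Replicate 1 held peaks of Mir378d, Mir7224 (53.3), Mir6393 (50.2) and Mir6238 (50.2). Replicate 2 held those of Mir5133, Mir5127 (55.8), Mir6350 (54.3) and Mir690 (52.0), and replicate 3 held none. None of the 8 lay within 10 kb of the hairpin. Mir6393 was the one member with peaks of all 4 groups, but they formed 3 regions, 151 to 367 kb upstream of its hairpin. Only the MyoD (75.1) and MyoG (50.2) peaks of ASC replicate 1 overlapped there.

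The third highest member by its best score, Mir6356 on chromosome 18, had a distal region at 54.4 kb with scores of 226, 111 and 128 in ASC MyoD (mean 155 ± 62.3). A second region, with a peak of 51.2 in replicate 2, lay at 66.6 kb. Mir6417 had 3 regions, each in 1 library, in ASC MyoD replicate 2 and QSC MyoD replicate 3. All 3 were annotated distal intergenic, yet lay inside the RefSeq span of Ppargc1a, the gene of the mitochondrial coactivator PGC-1α. Their scores were near the floor of 50, at 55.8 and 50.8 in ASC MyoD and 52.2 in QSC MyoD. The paper that reported these data did not detect either factor at this gene. Its bound genes came from peaks that differed between QSCs and ASCs at an FDR under 0.05. The calls here are peaks of single libraries, so the 2 readings use unlike thresholds. The 7 members outside the naming rule (Mir466f-4, Mir6238, Mir6344, Mir6348, Mir6365, Mir6412 and Mir690) had 1 peak each, with scores from 50.2 to 106.

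Within ASC MyoD libraries, microRNA peaks scored much like other peaks. Their median scores were 71.0, 61.2 and 67.5 in replicates 1, 2 and 3, against 75.2, 72.3 and 68.9 for all other peaks of those libraries. The log2 ratio of the medians was -0.12 ± 0.11 (SD, n = 3, exact sign-flip p = 0.25, the smallest that 3 libraries allow, adjusted p = 0.583). Among peaks of score 80 or more it was 0.19. In ASC MyoG the ratio was -0.11 ± 0.03 over the 2 libraries with a microRNA peak (exact sign-flip p = 0.5, the smallest possible). Over all libraries 30 of the 72 microRNA peaks scored under 60 and 21 scored at least 80, and those 21 were ASC MyoD peaks (8, 7 and 6 in replicates 1, 2 and 3). The 75th percentile of other peaks was 106, 100 and 97.2 in those libraries and at most 72.3 in any library of the other groups. The same counts over all peaks are not given here, so they are no result about microRNA peaks.

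**Figure D4:**
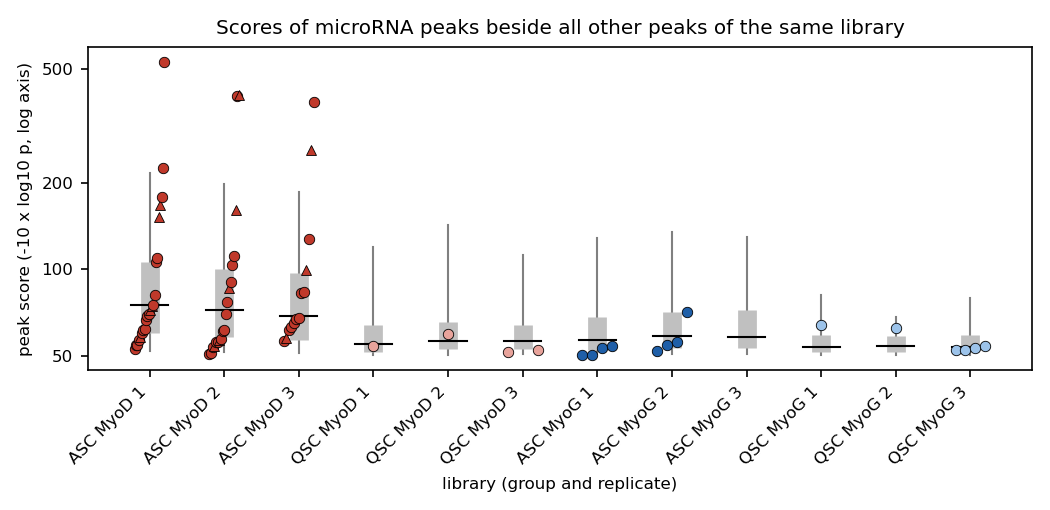
Peak scores on a log axis for the 12 libraries. Coloured points are microRNA peaks (triangles promoter, circles distal intergenic), grey bars run from the 25th to the 75th percentile of all other peaks of the library, thin lines from the 5th to the 95th, and black lines mark their medians. A few ASC MyoD points, among them Mir5133 at 531, 402 and 384, stand far above the others, and the microRNA points of the other groups stay below 72.

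By gene part, microRNA peaks were either distal intergenic (59) or promoter (13). In ASC MyoD, 77.3%, 73.7% and 76.9% of them were distal intergenic, against 34.2%, 36.1% and 36.3% of other peaks. A hairpin gene has no introns, and no microRNA peak of any library was annotated to an intron or exon, where other peaks could fall, so a higher distal share was largely fixed by the annotation. The difference was 40.4 percentage points ± 2.76 (SD, n = 3, exact sign-flip p = 0.25, the smallest possible, adjusted p = 0.583) and had the same direction in 3 of 3 libraries. In ASC MyoG it was 41.4 ± 0.807 over 2 libraries (exact sign-flip p = 0.5, the smallest possible). With promoter and distal peaks alone on both sides, a comparison added after the data were seen, the differences were 14.7 in ASC MyoD and 21.3 in ASC MyoG.

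Promoter shares in ASC MyoD were 22.7%, 26.3% and 23.1% for microRNA peaks and 23.3%, 21.8% and 22.2% for other peaks. The difference of 1.60 percentage points ± 2.59 was smaller than the spread between libraries (exact sign-flip p = 0.5, adjusted p = 0.7). With promoter and distal peaks alone, where the promoter share is the complement of the distal share, it turned to -14.7 percentage points (exact sign-flip p = 0.25, the smallest possible). In ASC MyoG no microRNA peak was a promoter peak, and the difference was -15.9 ± 2.00 over 2 libraries (exact sign-flip p = 0.5).

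Many of the assignments spanned long distances. The gap between region and hairpin had a median of 56.8 kb over the 47 regions and reached 448 kb. Hairpins were overlapped by 4 regions, 14 lay within 10 kb counting those, and 17 lay more than 100 kb away. Of the 31 ASC MyoD regions, 12 were within 10 kb. In each of the 47 the named gene was also the nearest RefSeq microRNA. RefSeq protein-coding spans overlapped 10 regions and long noncoding spans 10, and 27 regions overlapped neither.

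Distal microRNA peaks were farther from their gene than other distal peaks in each ASC MyoD library. Medians were 54.4, 71.4 and 48.8 kb for microRNA peaks and 24.2, 23.6 and 24.8 kb for the 92.8% to 93.3% of other distal peaks whose gene was found in RefSeq. For microRNA peaks the distance runs to the hairpin, not to the longer transcript it is cut from. The sets of peaks were thus measured to unlike features, and no test was made of this difference.

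**Figure D5:**
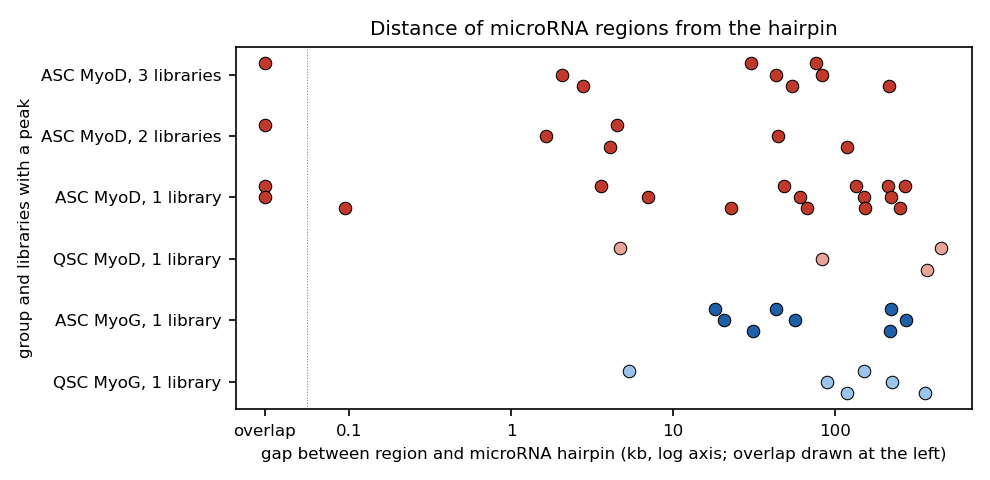
Gap in kb (log axis) between each microRNA region and its hairpin, by group and number of libraries with a peak. Regions that overlap the hairpin are drawn at the left edge, and the 2 regions with peaks of more than 1 group appear in each. All 4 overlapping regions were ASC MyoD regions, and ASC MyoG regions began at 18.2 kb.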

How the data were processed

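MyoD and MyoG ChIP-seq was made from ASCs and QSCs, with 3 libraries in each of 4 groups. Groups and replicate numbers came from the sample titles. The deposited files are peak lists called for each library separately, whose score the authors derived from the p-value (-10 times its log10). The submitters' processing notes name BWA 0.7.5, MACS, deepTools 3.5.0 and mm10. The MACS version, the use of inputs and filters are not given in the sources used here. Read counts were not analysed here, so depth is unknown, and no interval for counting error could be given. Scores depend on depth and describe calls, not binding strength.

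Members were chosen by symbol, and the members and lists were chosen with earlier results of these data known. Named were members on the lists, with a region in at least 2 of 3 libraries of a group, with a promoter peak (within 3 kb), among the 5 highest scores of a group, or with peaks of 3 or more groups. Exact two-sided permutation tests (20 relabelings) compared groups on the mean log2(number + 1) or the mean percentage, and microRNA with other peaks of the same list by exact sign-flip tests, with Benjamini-Hochberg adjustment over 14 tests. Region calling was run on simulated lists with planted regions far apart. That checks the code and does not cover close, split or differently assigned peaks. Alternatives were a score of at least 80, chromosomes 1 to 19 and X, merging within lists, leaving out crowded 1-Mb bins, distal peaks or single libraries, members with symbol numbers below 1000, other overlap and library rules, a pseudocount of 0.5 and pairing by replicate number. Python 3.11.15, pandas 2.3.3, NumPy 2.4.6 and SciPy 1.17.1 were used.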

Additional observations from a re-analysis of the deposited data

How the results depend on the processing

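None of the 14 tests passed 0.05 in any setting, and with 3 libraries a group none could. The log2 ratios of microRNA peak number for MyoD (ASC over QSC) and ASCs (MyoD over MyoG) stayed positive throughout. Without single libraries they were 2.87 to 3.23 and 1.90 to 3.06. The MyoD share difference (ASC minus QSC) turned to 0.71 at a score of 80, 0.28 without distal peaks, 0.32 with symbol numbers below 1000 and 0.19 with member peaks within 100 kb, and ran from -0.19 to 0.0931 without single libraries. The first 3 of these settings left no microRNA peak in QSC MyoD, nor in ASC MyoG at 80 or without distal peaks. Ratios and differences against them could not be negative. The MyoG number ratio (ASC over QSC) was 0 at a score of 80, without distal peaks and with a pseudocount of 0.5, and ran from -0.28 to 0.88 without single libraries. The QSC number ratio (MyoD over MyoG) ran from -0.47 to 0.19, and was 0.14 with peaks within 100 kb. The QSC share difference ran from -0.80 to 0.0926, turning without QSC MyoG replicate 3. Shares in MyoG and in QSCs, and the QSC number ratio, were 0 at a score of 80 and without distal peaks, since no microRNA peak was left. For other shares without single libraries, the MyoG difference (ASC minus QSC) ran from -1.25 to -0.36 and that of ASCs (MyoD minus MyoG) from 0.20 to 0.53.

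The ASC MyoD promoter difference turned to -0.69 with symbol numbers below 1000, -0.90 for promoters within 1 kb and -14.7 with promoter and distal peaks alone. With promoter and distal peaks alone the distal difference fell from 40.4 to 14.7 in ASC MyoD and from 41.4 to 21.3 in ASC MyoG, and at a score of 80 it was 30.9 in ASC MyoD. The log2 score ratio turned to 0.19 at a score of 80 and 0.25 without distal peaks. The 15 ASC-specific MyoD regions became 7 at a score of 80, 4 without distal peaks, 7 with symbol numbers below 1000, 31 with 1 library and 9 with all 3, and 9 to 15 without single libraries (9 without ASC MyoD replicate 2). The 15 genes became 7, 4, 7, 25 and 8 in the same order, and 9 to 15 without single libraries (9 without ASC MyoD replicate 1 or 2). For MyoG the counts of 0 became 8 regions and 7 genes with 1 library. The shares of all regions or genes under these settings are not given here, so the changed counts are no result about microRNA genes. Among members with a region in at least 2 of 3 libraries of a group, Mir1a-1, Mir138-2, Mir21c, Mir5103 and Mir680-3 lost their MyoD peaks at a score of 80. Members below that rule were not followed in this setting, and some, such as Mir26a-1 (57.6), also scored under 80. The cause of these changes was not tested. The 6 crowded bins held no microRNA peak. Distance alternatives and the one on promoter and distal peaks were chosen after seeing the data, except leaving out distal peaks.

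With differences formed within replicate numbers (the replicate block), the MyoD number ratio stayed 3.02, with an exact sign-flip p of 0.25. Pairing cannot change a mean difference, and the ASC-specific calls were not remade under the block. Deviations of same-numbered libraries in the log2 of microRNA peak number plus 1 were correlated over 3 libraries. The correlation was 0.962 between ASC MyoD and ASC MyoG and 1 between QSC MyoD and QSC MyoG. It was -0.962 to -1 between groups of different state, and -0.31 over all 18 pairs. In every group but ASC MyoD, replicates 1 and 2 held equal numbers of microRNA peaks. With 3 libraries such ties fix the size of each correlation between a pair of groups, so these values cannot show pairing. The sources used here do not say if equal replicate numbers mark a common animal or chromatin sample.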
